A study of Neurospora crassa with 12 samples.

Results

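The libraries described here are the mRNA libraries of wild-type (WT) *Neurospora crassa*, a filamentous fungus, made with and without cycloheximide (CHX). They are 4 of the 12 libraries of the series. The 2 libraries with CHX are the accompanying mRNA-seq, made beside ribosome profiling, and the 2 libraries without CHX are the independent mRNA-seq. The remaining libraries are ribosome profiling libraries and libraries of a strain with *adat2* silenced, and they are not compared here. Genes with a value above 0 in all 4 WT libraries were taken, which gave 6958 of the 9730 genes listed in any of the 4 tables.

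All 4 libraries came from mycelia of strain 87-3 (*bd*, *a*), the clock wild type that also carries the *bd* allele. The mycelia were grown from conidia in medium with 0.1% glucose and 0.01 M quinic acid (QA), for 3 days in plates, followed by 1 day of shaking, in constant light. The paper adds arginine to this medium, and the labels list none. CHX was given at 50 μg/ml for 10 min before harvest in the accompanying mRNA-seq only, and CHX was also present when its RNA was extracted. The drug, the cultures, the RNA extraction, the library kit, the alignment and the counting all differ between the kinds, so their effects cannot be told apart. Every difference below is a difference between kinds of library.

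CHX binds the large ribosomal subunit and stops elongation, so that ribosomes stay on the mRNA and protein synthesis halts. In fungi the drug is added before ribosome profiling for that reason, and mRNAs whose decay or synthesis responds to translation can change in amount while it acts. A known case is that of mRNAs under nonsense-mediated decay. Many mRNAs of amino acid synthesis respond to amino acid starvation through CPC-1, the *Neurospora* counterpart of yeast Gcn4. Whether CHX changes them was not tested.

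The counts of the accompanying libraries sum to 961703 reads (replicate 1) and 2361460 reads (replicate 2) in coding sequences, with a median of 40 and 99 reads per ranked gene. Under 10 reads were found for 1091 ranked genes in replicate 1 and for 401 in replicate 2. Read numbers were not used for the independent libraries, whose tables give a median coverage of 219 (replicate 1) and 143 (replicate 2) over the ranked genes. Because the kinds were counted differently, FPKM (fragments per kilobase, scaled to the size of the library) was turned into a percentile rank within each library, from the lowest of the ranked genes to 100 for the highest. A difference is given in points of this rank, CHX minus no CHX. The targeted gene of the series, the adenosine deaminase gene *adat2* (NCU01888), was found in 8 and 25 reads with CHX, is listed at 0 in both tables without CHX, and is therefore not ranked.

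Libraries of a kind agreed more closely than libraries of different kinds. Across the 6958 genes, Spearman's rho was 0.969 between the CHX replicates and 0.991 between the replicates without CHX. Between kinds it lay from 0.769 to 0.779, and Pearson's r of log2 FPKM lay from 0.780 to 0.793. These are correlations across genes, which are not independent replicates. A gene's rank differed by a median of 3.31 points between the CHX replicates, by 0.848 points between the replicates without CHX, and by 10.9 to 11.1 points between libraries of different kinds. Of the 100 genes with the highest FPKM, 95 were shared by the CHX replicates, 94 by the replicates without CHX, and 41 to 44 by libraries of different kinds. The differences of the means ranged from -80.8 to 83.6 points, with a median of -0.905 and quartiles of -11.4 and 9.82.

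**Figure D1:**
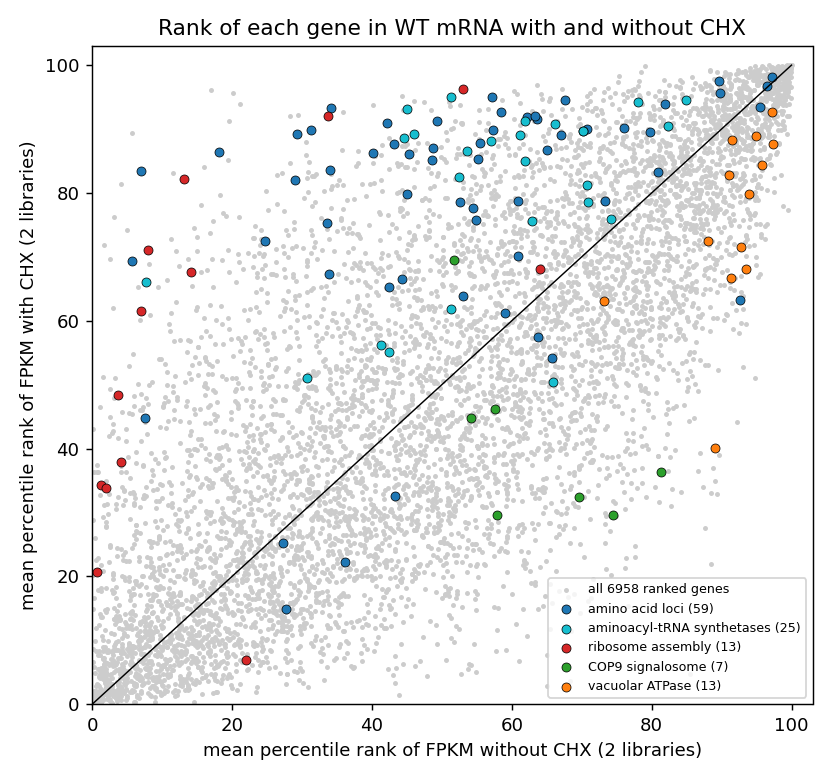
Mean percentile rank of FPKM with CHX (y axis) against that without CHX (x axis) for all 6958 ranked genes (grey), each the mean of 2 libraries, with 5 gene groups in colour and the line of equal rank in black. Loci for amino acid requirements, aminoacyl-tRNA synthetases and ribosome assembly genes lie mostly above the line, and COP9 signalosome and vacuolar ATPase genes mostly below it. The amino acid, COP9 and vacuolar ATPase groups were chosen after the values were seen.

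limma, fitted to the percentile ranks of all ranked genes with Benjamini-Hochberg adjustment, called 4517 genes (64.9%) at an adjusted p under 0.05. Of all ranked genes, 2128 (30.6%) were higher with CHX and 2389 (34.3%) were lower. With a difference of at least 20 points as well, 913 genes (13.1%) were higher and 849 (12.2%) were lower. The ranks of the kinds did not overlap in 2773 genes (39.9%) on the higher side and in 3152 genes (45.3%) on the lower side. Without replicate 1 lacking CHX the calls fell to 3084, with 1536 lower, and without replicate 2 lacking CHX to 3058, with 1526 lower, while with either CHX library left out they rose to 5462 or more. A call was thus the common state of a gene, and each count of a gene group below is to be read against these shares. The amino acid, purine, import, COP9, vacuolar ATPase and complex I lists were chosen after these values were seen. So was the size of 20 points. For those lists an excess over these shares is partly set by the choice and is not independent evidence. The study calls the replicates of either kind independent biological replicates, and with 2 against 2 the fit borrows the spread from all genes.

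The genes with the largest higher ranks with CHX included enzymes of amino acid and carbon metabolism. NCU01728 is annotated as 6-phosphofructo-2-kinase, which makes the regulator of glycolysis fructose 2,6-bisphosphate, and had an FPKM of 167 and 145 with CHX (replicates 1 and 2) against 1.92 and 1.83 without. Its difference was 83.6 points (standard error 2.33, limma adjusted p = 0.000315), the largest of all genes. *arg-5*, the acetylornithine aminotransferase of arginine synthesis, had an FPKM of 92.8 and 94.3 with CHX against 2.05 and 2.45 without, a difference of 76.4 points (standard error 2.35). *lao*, an L-amino acid oxidase, had 48.4 and 67.8 against 2.00 and 1.22, a difference of 69.4 points (standard error 3.48). In each of these genes both libraries with CHX stood far above both without it, which follows from how they were chosen. Ranks did not overlap on the higher side in 39.9% of all ranked genes. NCU03396, the nucleolar protein NOP58 of the particles that methylate rRNA, had 83.7 and 90.9 against 4.14 and 4.29, a difference of 69.2 points (standard error 2.35).

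The other 6 of the 10 largest were NCU09872, NCU03561, NCU04697, NCU01290, NCU06322 and NCU04039, with differences from 71.7 to 79.2 points. NCU04039 is annotated as a GNAT family N-acetyltransferase, and no product is named for the other 5 in the sources used here. NCU09872 lies 68 bases from *acu-6* in the gene table of assembly NC12, and *acu-6* had an FPKM of 3494 and 3163 with CHX. Reads with CHX were mapped to coding sequences with 100 bases added on each side, which here reach into the *acu-6* model. Whether reads of *acu-6* were counted for NCU09872 was not tested. NCU06322 and NCU04039 overlap a neighbouring gene model. Of the 132 genes chosen by the naming rule, 38 have a model that overlaps another gene in that table. Strand was not stated for the counting, so reads of overlapping models may not be separated.

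The genes with the largest differences on the lower side included several with few reads with CHX. NCU06255 had an FPKM of 7.21 and 13.7 with CHX, from 13 and 60 reads, against 116 and 111 without. Its difference of -60.1 points (standard error 5.71, limma adjusted p = 0.00195) was the largest on the lower side among genes with at least 10 reads and an FPKM of at least 1. *rca-1*, a Myb-type factor named for its likeness to a regulator of conidiation in *Aspergillus*, had 8.35 and 8.60 against 54.8 and 56.1, a difference of -53.5 points (standard error 2.25). NCU05069, annotated as an FAD dependent oxidoreductase, had 11.1 and 16.1 against 112 and 152, a difference of -54.1 points (standard error 4.21). All 3 genes had ranks that did not overlap between the kinds, as did 45.3% of all ranked genes on the lower side. They were chosen for the size of their difference, so this is no further evidence. NCU06803, NCU06963, NCU01409, NCU09027, NCU03858, NCU07142 and NCU09193 made up the rest, from -56.5 to -51.8 points, with no product named for them in the sources used here. NCU07142 rested on 11 and 10 reads with CHX.

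At the top of the scale the kinds shared some mRNAs and differed in others. NCU06110, a thiazole biosynthetic enzyme of thiamine synthesis, was the most abundant mRNA in both CHX libraries, with an FPKM of 17391 and 16104, against 5692 and 5612 without CHX. The ribosomal protein genes NCU00315 (L29) and NCU00294 (L10a) followed there with *ccg-1* and *gpd-1*, the glyceraldehyde-3-phosphate dehydrogenase. NCU00315 had 10971 and 14987 with CHX against 403 and 402 without. Without CHX the highest ranks belonged to *ccg-1*, *eas*, NCU06110, *nmt-1*, which is also a thiamine gene, and NCU04314. NCU04314 had 4582 and 4585 without CHX against 1183 and 1048 with it.

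Loci for amino acid requirements ranked higher with CHX as a group, which was chosen after the values were seen. The symbols of 63 genes begin with a letter code of an amino acid locus (such as *arg*, *his*, *trp* or *lys*), and 59 of them were ranked. With CHX, 49 (83.1%) were higher, against 30.6% of all genes, and 6 were lower, or 2 with either library lacking CHX left out. By at least 20 points, 36 (61.0%) were higher, against 13.1% of all genes. The median difference was 26.0 points, against -0.905 for all ranked genes, and 1.89 on the log2 scale (FPKM over the median of the library), against -0.04. These loci held 1.28% of the summed FPKM in each CHX library and 0.558% and 0.570% in those without CHX.

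*arg-3*, the large subunit of the carbamoyl phosphate synthetase of arginine synthesis, had an FPKM of 110 and 120 with CHX against 5.42 and 6.22 without. Its difference was 68.3 points (standard error 2.39). *ilv-5*, annotated as a pyruvate decarboxylase, went the other way, with 31.0 and 40.6 against 182 and 188, a difference of -29.3 points (standard error 2.38). *arg-15*, annotated as a beta-Ala-His dipeptidase, was lower too, with 9.02 and 7.43 against 13.9 and 11.7. Its difference was -14.0 points (standard error 3.17, limma adjusted p = 0.0210), and -32.1 points with transcripts assembled from the reads added. The letter codes also take in loci that are not enzymes of synthesis, such as *leu-6*, the cytosolic leucyl-tRNA synthetase.

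**Figure D2:**
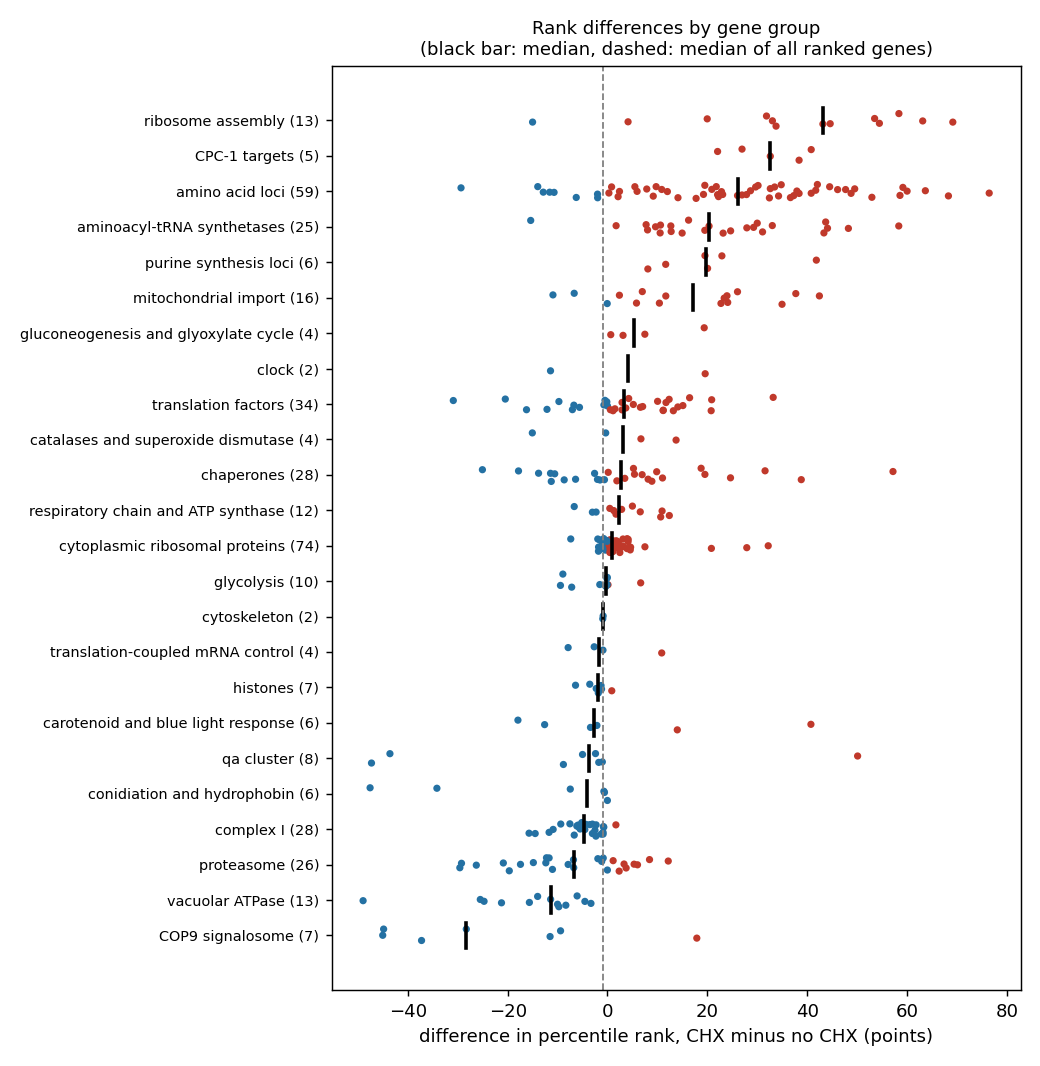
Differences in percentile rank between WT mRNA with and without CHX (x axis, points) for the ranked members of each gene group (rows, with the number ranked), red where higher and blue where lower with CHX. Black bars are group medians, from 43.1 points for ribosome assembly to -28.3 points for the COP9 signalosome, and the dashed line is the median of all ranked genes (-0.905).

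The 5 genes that the study names as CPC-1 targets were higher. The list comes from the study that made these libraries, so it is not independent evidence of a direction, and all 5 are also among the amino acid loci. *trp-1*, of tryptophan synthesis, had an FPKM of 108 and 119 with CHX against 17.3 and 17.6 without, a difference of 40.8 points (standard error 1.49). *trp-3* had 128 and 119 against 19.2 and 19.7. *his-3*, of histidine synthesis, had 299 and 354 against 38.7 and 38.3, *arg-12*, the ornithine carbamoyltransferase, 150 and 151 against 38.2 and 36.9, and *leu-6* 175 and 156 against 29.4 and 23.4. The differences of the 5 genes lay from 22.0 to 40.8 points. The kinds overlapped in none of them, and 39.9% of all ranked genes did not overlap on the higher side.

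The mRNA of the regulator itself ranked slightly lower. *cpc-1* had an FPKM of 325 and 450 with CHX against 528 and 537 without, a difference of -2.67 points (standard error 0.492, limma adjusted p = 0.0117). By limma without a variance trend *cpc-1* was not called. *arg-2* encodes the small subunit of the same synthetase as *arg-3*, and a peptide in its mRNA leader stalls ribosomes when arginine is high. It had 37.1 and 35.7 against 22.0 and 22.9, a difference of 10.9 points (standard error 1.97, limma adjusted p = 0.0112). Of the nonsense-mediated decay factors, *prd-6* (UPF1) had 22.5 and 22.9 against 21.9 and 21.6, with no call (adjusted p = 0.738). NCU05267 (UPF2) had 11.1 and 11.3 against 13.4 and 13.5, a difference of -7.88 points (standard error 2.19, limma adjusted p = 0.0369).

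Aminoacyl-tRNA synthetases, which charge tRNAs with their amino acids, were likewise higher. Of 25 ranked genes of 26 listed, 23 (92.0%) were higher and 1 was lower, against 30.6% and 34.3% of all ranked genes. By at least 20 points 13 (52.0%) were higher, against 13.1% of all. The median difference of the synthetases was 20.3 points. NCU00931, a lysyl-tRNA synthetase, had an FPKM of 30.5 and 53.0 with CHX against 2.53 and 2.54 without, a difference of 58.3 points (standard error 5.08). NCU05095, a phenylalanyl-tRNA synthetase subunit, had 232 and 267 against 17.3 and 17.1, a difference of 48.2 points (standard error 1.25). NCU07082, an aspartyl-tRNA synthetase, was the exception, though not called with either library lacking CHX left out, with 20.3 and 24.7 against 35.3 and 36.3, a difference of -15.4 points (standard error 2.84). The genes named for adenine requirement, of purine synthesis, were higher in 6 of 6, with a median of 19.8 points. This purine list was chosen after the values were seen. *ad-4*, the adenylosuccinate lyase, had 1111 and 1230 against 52.8 and 53.1, and *ad-7*, the amidophosphoribosyltransferase that opens the pathway, had 23.5 and 20.6 against 2.26 and 2.97. The smallest difference among the 6 was that of *ad-9*, 8.08 points (standard error 1.96).

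Ribosome assembly showed the largest median of the groups. These genes encode nucleolar and cytoplasmic factors that process rRNA and build the subunits. Of 13 genes, 11 (84.6%) were higher and 1 was lower, against 30.6% and 34.3% of all ranked genes. By at least 20 points 10 (76.9%) were higher, against 13.1% of all. The median difference was 43.1 points, and the median rank of the group was 61.5 with CHX and 7.93 without. NCU03396 was described above, and NCU08595, a ribosome biogenesis protein, had an FPKM of 46.4 and 52.4 with CHX against 2.82 and 2.28 without, a difference of 63.1 points (standard error 2.52). NCU00115, the rRNA-processing protein FCF2, had 3.53 and 1.94 against 6.77 and 7.65, a difference of -15.0 points (standard error 2.66) that rests on 3 and 4 reads with CHX.

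Cytoplasmic ribosomal proteins were near the top of the rank scale in every library, which left them little room to move in rank. Of 74 ranked genes of 75 listed, 47 (63.5%) were higher and 12 (16.2%) lower, against 30.6% and 34.3% of all ranked genes. The median difference of the ribosomal protein genes was 0.958 points. By limma without a variance trend only 12 were higher and 1 was lower. On the log2 scale, which has no such ceiling, their median was 1.38, and 65 were higher and 4 lower, against 32.7% and 31.3% of all ranked genes. Their share of the summed FPKM was 17.9% and 18.3% with CHX and 8.22% and 8.03% without. The largest rank differences were in 2 genes of low abundance. NCU08299, annotated as L3, had 45.8 and 38.0 against 12.5 and 12.2, and NCU07547, annotated as P0, had 14.3 and 9.70 against 1.34 and 0.982. NCU06048 (S30) was lowest, with 105 and 111 against 193 and 189. Its difference was -7.36 points, or -2.10 with coding length in place of the listed length. NCU01552 (S28) followed, with 732 and 811 against 1011 and 985.

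Translation factors were mixed, with a median of 3.29 points. Against 30.6% higher and 34.3% lower among all ranked genes, 20 of 34 ranked factors (58.8%) were higher and 8 (23.5%) lower. Those lower fell to 5 without replicate 1 lacking CHX and to 4 without replicate 2 lacking CHX. NCU09903, annotated as elongation factor 3, had an FPKM of 16.1 and 15.2 with CHX against 1.99 and 2.05 without, a difference of 33.2 points. NCU00040, an initiation factor subunit, had 154 and 156 against 38.5 and 41.3. The cap-binding factor eIF4E (NCU03717) had 27.1 and 25.1 against 102 and 99.3, a difference of -30.9 points (standard error 1.39). Release factor 1 (NCU00410), which reads stop codons, had 43.0 and 31.2 against 87.0 and 89.2, a difference of -20.5 points (standard error 3.10). Chaperones were mixed as well, with 14 of 28 (50.0%) higher and 8 (28.6%) lower. A DnaK (NCU00692) had 69.2 and 58.5 against 5.68 and 6.68 and a chaperonin (NCU04334) 164 and 173 against 20.4 and 22.0. The DnaJ proteins NCU00465 and NCU03335 were lower, by -25.1 and -13.8 points.

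Among mitochondrial genes, import receptors and translocases were higher in 11 of 16 ranked genes (68.8%) and lower in 2 (12.5%), with a median of 17.2 points. Of all ranked genes, 30.6% were higher and 34.3% lower, and the import and complex I lists were chosen after the values were seen. With coding length in place of the listed length no import gene was lower by limma. *tim23*, the channel of the inner membrane translocase, had an FPKM of 85.6 and 62.2 with CHX against 12.4 and 13.6 without, a difference of 42.4 points (standard error 3.03). *tom70*, a receptor of the outer membrane, had 236 and 248 against 23.5 and 24.8, a difference of 37.7 points (standard error 1.08). *tom20* and *tom7* were lower, by -10.9 and -6.67 points, and *tom7* was higher (2.63 points) when coding length replaced the listed length. Complex I, the NADH dehydrogenase of the respiratory chain, was lower in 23 of 28 ranked genes (82.1%) and higher in none by limma at an adjusted p under 0.05, with a median of -4.75 points. *nuo9.8* had 85.2 and 96.5 against 643 and 621, and *nuo10.4* had 73.8 and 76.8 against 230 and 234. With coding length in place of the listed length, 19 complex I genes were lower and 1 was higher, with a median of -3.41 points. *nuo9.8* then moved from -15.7 to -10.8 points and *nuo10.4* from -14.5 to -8.93 points.

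In a second list of respiratory chain and ATP synthase genes, which shares 3 genes with complex I, 8 of 12 were higher and 3 lower, or 5 higher by limma without a variance trend. *cox-4*, a cytochrome c oxidase subunit, had 1052 and 1192 against 96.0 and 101, a difference of 12.4 points (standard error 0.327). NCU03559, of the ubiquinol-cytochrome c reductase, had 1925 and 2091 against 117 and 125. The 2 lowest were the complex I subunits *nuo78*, with 140 and 121 against 233 and 236, and *nuo24*, with 162 and 169 against 193 and 195.

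Of carbon metabolism, all 4 genes of gluconeogenesis and the glyoxylate cycle were higher, against 30.6% of all ranked genes. *acu-3*, the isocitrate lyase, had an FPKM of 920 and 825 with CHX against 61.3 and 60.1 without, a difference of 19.4 points (standard error 0.351). *acu-5*, the acetyl-CoA synthetase, had 499 and 451 against 123 and 123. *fbp-1*, the fructose-1,6-bisphosphatase, had 1074 and 1007 against 255 and 254, and *acu-6*, the phosphoenolpyruvate carboxykinase, had 3494 and 3163 against 880 and 938. Among 10 genes listed under glycolysis, 1 (10.0%) was higher and 4 (40.0%) were lower in rank, against 30.6% and 34.3% of all ranked genes. By limma without a variance trend 2 were lower. The higher gene was *cfp*, with 467 and 403 against 125 and 133. It encodes the pyruvate decarboxylase that forms cytoplasmic filaments and is not a step of glycolysis itself. No other gene of the list was called higher by rank.

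The 4 lower glycolysis genes were 40.0% of the list, near the 34.3% of all ranked genes. Glucokinase (NCU00575) had 92.2 and 64.2 against 128 and 132, *emp-3* (6-phosphofructokinase) 77.1 and 64.5 against 110 and 113, *ace-8* (pyruvate kinase) 111 and 92.7 against 168 and 172, and *gpi-1* 411 and 437 against 447 and 458. The other 5 had rank differences from -0.323 to 0.101 points and no call. On the log2 scale these 5 (*gpd-1*, *emp-7*, *fba*, NCU07550 and *pgk*) were higher with CHX, by 0.63 to 1.20, so the direction of the list depends on the scale.

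The COP9 signalosome is a complex that removes NEDD8 from cullin ubiquitin ligases and in *Neurospora* is needed for the clock. Of its 7 subunit genes, 5 (71.4%) were lower and 1 was higher, against 34.3% and 30.6% of all ranked genes, and the median was -28.3 points. *csn-1* had an FPKM of 13.8 and 14.5 with CHX against 71.7 and 73.2 without, a difference of -45.0 points (standard error 1.93). *csn-2* had 13.5 and 11.4 against 41.7 and 41.7, a difference of -37.2 points (standard error 2.87), and *csn-3* had 13.3 and 9.31 against 27.0 and 26.6. *csn-3* is the neighbour of NCU01409, which was itself among the 10 lowest. *csn-5*, the subunit that holds the active site, had 19.5 and 5.01 against 50.8 and 50.5, and its CHX replicates, with 24 and 15 reads, differed by more than those of the other subunits. *csn-7* was at -9.40 points (limma adjusted p = 0.0494) and at -19.0 with assembled transcripts added, and *csn-4* at -11.5 points without a call (adjusted p = 0.0693). *csn-6* alone was higher, with 47.5 and 44.9 against 21.9 and 21.1, a difference of 17.9 points (standard error 1.89). The number of lower subunits ranged from 3 (with either library lacking CHX left out) to 6 when 1 library was left out.

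The proteasome, which degrades ubiquitinated proteins, was lower in 15 of 26 genes (57.7%) and higher in 6 (23.1%), with a median of -6.79 points. Of all ranked genes, 34.3% were lower and 30.6% higher. *rpn-5*, a lid subunit, had an FPKM of 36.1 and 21.8 with CHX against 107 and 97.8 without, a difference of -29.6 points (standard error 5.10). *pcb-6*, of the core, had 36.4 and 36.1 against 201 and 193, a difference of -29.2 points (standard error 0.696). The highest were *rpn-11*, the deubiquitinase of the lid, with 210 and 213 against 54.1 and 83.8, and *rpn-8*, with 144 and 111 against 73.2 and 69.9. The vacuolar ATPase, a proton pump, was lower in 12 of 13 genes (92.3%) and higher in none by limma at an adjusted p under 0.05. Its median was -11.4 points, and its list was chosen after the values were seen. *vma-9* had 20.6 and 12.3 against 124 and 131, from 9 and 13 reads with CHX. *vma-6* had 44.0 and 42.2 against 221 and 197, a difference of -25.5 points (standard error 0.778).

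**Figure D3:**
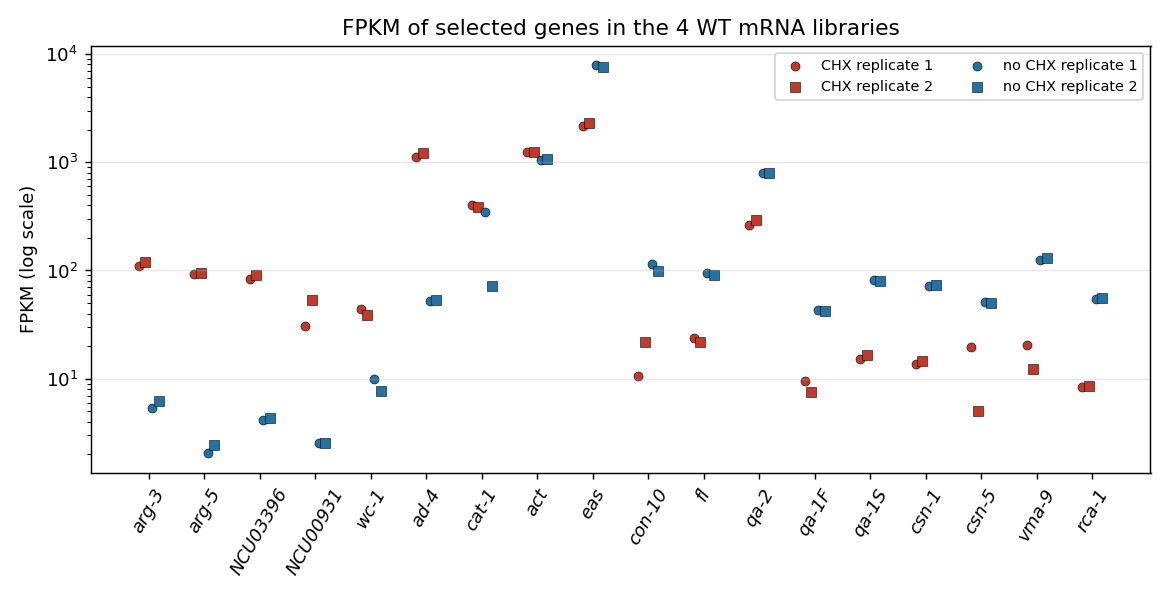
FPKM (y axis, log scale) of 18 genes in each of the 4 WT mRNA libraries, red with CHX and blue without, circles for replicate 1 and squares for replicate 2. The FPKM values of the kinds overlap in none of these genes, which were selected. FPKM was counted differently in the kinds, and by rank *cat-1* overlapped and *act* was lower with CHX. Ranks did not overlap in 39.9% of all ranked genes on the higher side and in 45.3% on the lower side. Replicates lie farthest apart in *cat-1* without CHX (345 and 71.5) and in *csn-5* with CHX (19.5 and 5.01).

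Genes of conidiation, the making of asexual spores, were mostly lower with CHX. They were lower in 5 of 6 cases by rank, against 34.3% of all ranked genes. On the log2 scale 6 of 6 were lower, against 31.3%. By rank 3 were lower with either library lacking CHX left out, and also by limma without a variance trend. *con-10* had an FPKM of 10.6 and 21.9 with CHX, from 5 and 25 reads, against 115 and 99.9 without, a difference of -47.5 points (standard error 7.57). With coding length in place of the listed length *con-10* was at -35.7 points. *fl*, the zinc cluster factor that drives conidiation, had 24.0 and 21.6 against 94.8 and 90.8, a difference of -34.2 points (standard error 1.79). *con-8* had 122 and 116 against 236 and 221. The hydrophobin gene *eas* stood near the top in both kinds, with 2183 and 2293 against 7859 and 7608, as did *con-6*, with 1719 and 1765 against 1961 and 1939. *ccg-1* had 12164 and 11727 against 21687 and 19525, with no call by rank and -0.90 on the log2 scale (standard error 0.08, limma adjusted p = 0.0011).

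These 6 genes also serve as markers of conidia and aerial hyphae in a sample labelled mycelia. Their summed FPKM was 16222 and 15945 with CHX and 31954 and 29483 without, which is 2.23% and 2.16% of all FPKM of ranked genes against 6.28% and 5.83%. None of the 6 was at 0. *ccg-1*, which had no call by rank, made up most of each sum, with 12164 and 11727 with CHX against 21687 and 19525 without. *cat-1*, a catalase of conidia described below, is not among the 6 and had no call from its annotated transcripts. The part of such cells in the differences above was not tested. In bulk RNA, fewer cells of a type and less RNA per cell cannot be told apart.

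The *qa* cluster, which QA induces through the activator QA-1F, was lower in 7 of 8 genes (87.5%), against 34.3% of all ranked genes. By limma without a variance trend 4 of the cluster were lower, against 30.9% of all ranked genes. *qa-1F* had an FPKM of 9.63 and 7.47 with CHX against 43.1 and 42.5 without, a difference of -47.3 points (standard error 3.24). *qa-1S*, the repressor, had 15.3 and 16.4 against 82.1 and 79.8, a difference of -43.6 points (standard error 1.85). In rank these regulators differed by more than the enzymes, which lie near the top of the scale, and on the log2 scale *qa-1F* (-2.45) and *qa-1S* (-2.47) were close to *qa-Y* (-2.34). Among the enzymes and the permease, *qa-2* had 264 and 293 against 793 and 796, *qa-3* 796 and 783 against 1632 and 1622, and *qa-Y* 184 and 154 against 792 and 782. *qa-4* had 452 and 518 against 505 and 524, and *qa-X* 158 and 157 against 150 and 144, with rank differences of -1.75 and -1.03 points and no call on the log2 scale. NCU06021, the neighbour of *qa-X* and the last of the list, was higher with 71.6 and 46.9 against 7.91 and 8.14, a difference of 50.1 points (standard error 3.89).

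Among light and clock genes the White Collar genes were higher and the carotenoid genes lower. *wc-1*, the blue light receptor and partner of *wc-2* in the White Collar complex, had an FPKM of 43.7 and 39.0 with CHX against 9.85 and 7.76 without, a difference of 40.7 points (standard error 3.12). *wc-2* had 96.3 and 100.4 against 42.7 and 42.3, a difference of 14.0 points (standard error 0.762). Of the carotenoid genes, *al-3* had 60.1 and 70.0 against 250 and 244, *al-1* 81.5 and 94.0 against 248 and 252, and *al-2* 266 and 267 against 301 and 298. The photoreceptor gene *vvd* had 315 and 283 against 482 and 490. *frq*, the negative element of the circadian clock, had 41.5 and 35.3 against 59.8 and 51.9, a difference of -11.4 points (standard error 2.11, limma adjusted p = 0.0118). With the highest transcript in place of the sum the difference of *frq* was 1.88 points without a call. Its partner *frh*, an RNA helicase, had 16.4 and 17.8 against 7.28 and 7.36, a difference of 19.6 points (standard error 2.29). Without replicate 1 lacking CHX neither *frq* nor *frh* was called.

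Several abundant families differed little in rank. Histone genes were lower in 5 of 7 (71.4%), against 34.3% of all ranked genes, with a median of -1.84 points. On the log2 scale 2 of 7 were lower, against 31.3% of all, and 1 by limma without a variance trend. *hH1*, the linker histone, had an FPKM of 350 and 288 with CHX against 553 and 549 without. *hH4-1* had 751 and 643 against 1023 and 1051. *hH4-2*, *hH2A* and *hH2B* were lower by rank, from -1.84 to -1.19 points, and *hH2Az* had 38.8 and 21.8 against 34.0 and 32.7 with no call. Actin (*act*), with 1250 and 1236 against 1040 and 1077, and β-tubulin (*Bml*), with 370 and 408 against 347 and 356, were lower by less than 1 point in rank and had log2 differences of 0.12 and 0.03 without a call.

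In 2 of the genes described, the replicates without CHX disagreed. *cat-1*, a catalase of conidia, had 402 and 383 with CHX against 345 and 71.5 without, with no call (adjusted p = 0.327), and *hH3* had 1582 and 1730 against 1395 and 386 (adjusted p = 0.508). The Cufflinks tables hold transcripts assembled from the reads beside the annotated ones, and with the assembled transcripts added both genes were lower with CHX, by -0.877 and -0.668 points (limma adjusted p = 0.0170 and 0.0118). Among the other genes against oxidative stress, *cat-3* had 222 and 186 against 56.4 and 63.4, a difference of 13.7 points (standard error 1.09). *cat-2* had 97.7 and 79.0 against 464 and 479, a difference of -15.1 points (standard error 1.28). *sod-1* had 741 and 742 against 475 and 490, with no call by rank and 0.50 on the log2 scale (standard error 0.05).

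Gene structure moved little with the difference. Over 5 nearly equal groups of the ranked genes by coding length, the median difference lay from -2.21 to 0.701 points, and over groups by codon bias index, a score that is high in genes with preferred codons, from -2.08 to 1.38 points. Over groups by the transcript length outside the coding sequence it lay from 0.719 points for the shortest to -3.18 points for the longest. In the group with the highest codon bias index, 18.8% of genes were higher by at least 20 points and 6.97% lower, against 10.6% and 14.4% in the lowest group. The index is also high in abundant mRNAs. Spearman's rho with the difference was 0.0497 for coding length, 0.121 for the codon bias index and -0.101 for the length outside, as descriptions across genes.

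**Figure D4:**
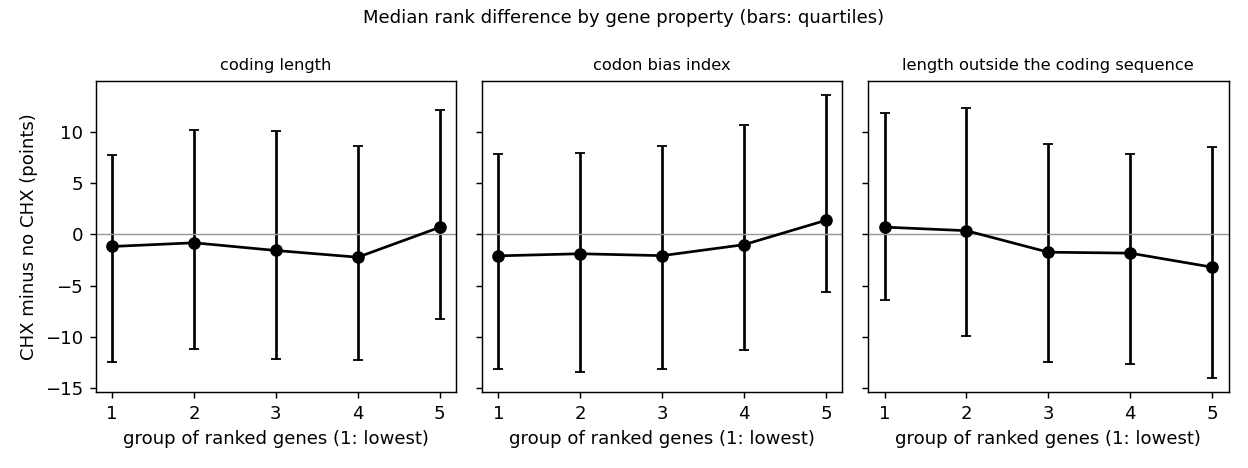
Median difference in percentile rank (y axis, points, CHX minus no CHX) in 5 nearly equal groups of the ranked genes from lowest to highest coding length, codon bias index and transcript length outside the coding sequence (x axes), with bars from the lower to the upper quartile. The medians stay between -3.18 and 1.38 points, while the quartiles reach from -14.0 to 13.6 points.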

How the data were processed

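The accompanying mRNA-seq (with CHX) was mapped by the authors with Bowtie2 to coding sequences with 100 bases added on each side. Unique matches were kept and deposited as a count of reads in each coding sequence, with an FPKM and, as a score, the codon bias index. The deposited length, behind FPKM, is the coding length plus 200 bases. For the independent mRNA-seq (without CHX) the authors deposited FPKM and coverage as a signal for each annotated and assembled transcript. The submitters' processing notes name TopHat2 and Cufflinks, with versions not given in the sources used here. The build is not given in the sources used here. Symbols came from a gene table of assembly NC12, which held all 6958 genes and also gave neighbours and overlaps, and products from a supplementary table of the paper. The label gives the CHX dose in g/ml and the paper in μg/ml. The first CHX library carries no replicate number and was taken as replicate 1.

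FPKM of annotated transcripts was summed per gene. Ranks of genes above 0 in all 4 libraries were fitted with limma 3.58.1 (R 4.3.3), with a variance trend, CHX minus no CHX, with Benjamini-Hochberg adjustment over 6958 genes and a threshold of 0.05. The fit was first tested on simulated data. Alternatives were log2 FPKM over the library median, other filters, transcripts and lengths, a replicate block, and each library left out. Python 3.11.15 with pandas 2.3.3, scipy 1.17.1 and matplotlib 3.10.9 did the rest. The members and the gene lists were chosen with earlier results of these data known, and the amino acid, purine, import, COP9, vacuolar ATPase and complex I lists and the size of 20 points after the values here were seen. Named genes are the 10 largest and 10 smallest differences among called genes with at least 10 reads and an FPKM of at least 1, the 2 extreme called genes on each side of lists over 10 genes, all genes of shorter lists, and the 5 highest ranks of each kind. Confidence bounds in the deposited tables were not used. Intervals for shares of reads are Wilson 95% intervals and cover counting error only.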

Additional observations from a re-analysis of the deposited data

Results flagged for a closer look

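*gdh-1* (NCU00461, an NAD-specific glutamate dehydrogenase) is outside the ranked genes. It had 4243 reads in replicate 1, which is 0.441% of the reads in coding sequences (Wilson 95% interval 0.428% to 0.455%), and 12093 reads in replicate 2, which is 0.512% (0.503% to 0.521%). It drew attention because its annotated transcript is listed at 0 in both tables without CHX. The Cufflinks locus that holds it has 2 annotated genes and 1 assembled transcript in each table, with a total FPKM of 728 and 782. No fold is given against values listed at 0.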

How the results depend on the processing

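The number of called genes, 4517, stayed within 1.5 times under every alternative run, from 3917 (genes without assembled transcripts, 5630 tested) to 4966 (values of 0 included, 7707 tested), and from 3058 to 5482 with 1 library left out. Leaving out a library moved the genes higher with CHX to between 1532 and 2562 and those lower to between 1526 and 2920. With replicate numbers as a replicate block 4312 genes were called, 2030 higher and 2282 lower. The correlation of replicate deviations between kinds was -0.00373 across genes, which with so few libraries cannot settle whether the numbers pair samples. With the block only *csn-7*, *ad-9*, *qa-X* and NCU05267 of the 132 named genes lost a call (limma adjusted p from 0.0539 to 0.124). Leaving out 1 library took the call from 18 named genes (adjusted p from 0.0521 to 0.380), *Bml*, NCU00294, NCU03335, NCU05267, NCU07082, *acu-6*, *ad-9*, *arg-15*, *arg-2*, *con-6*, *csn-5*, *csn-7*, *eas*, *frh*, *frq*, *qa-X*, *rpn-11* and *tom20*, and limma without a trend took it from 21. Among 132 named genes 86 kept direction and side of the threshold in every alternative. Reversals were found for genes with differences under 1 point and for *cat-1*, *frq*, *hH2Az* and *tom7*, and where nothing else is said the cause was not tested. On the 3 log2 scales, which lack the ceiling of ranks, *sod-1* was at 0.50 to 0.51, *Bml* at 0.028, 0.029 and 0.033, *act* at 0.12, *emp-7* at 0.76, *fba* at 0.76 to 0.77, NCU07550 at 0.68 to 0.69 and *pgk* at 0.63 to 0.64. With the highest transcript in place of the sum, *frq* was at 1.88 points, *act* at 0.266, *emp-7* at 0.474, *fba* at 0.237, *hH2Az* at 8.25 and *tom7* at 14.6. With assembled transcripts added, *cat-1* was at -0.877, *hH3* at -0.668 and *prd-6* at 0.352 points, and among genes without assembled transcripts *prd-6* was at 0.0444. With coding length, *tom7* was at 2.63 points. With 1 library left out, *cat-1* lay from -0.862 (without replicate 2 lacking CHX) to 14.3 points, *hH3* from -0.611 (without the same library) to 2.32, and *hH2Az* from -14.5 to 1.68 (without CHX replicate 2). The alternatives on coding length and assembled transcripts were added after seeing the data. Depth limits genes with few CHX reads, such as *con-10* and *vma-9*.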

Other observations

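Other genes were read with CHX but could not be ranked. Among the 2772 unranked genes, 749 had reads in both CHX libraries and an FPKM listed at 0 in at least 1 table without CHX, and 514 of these are at 0 in both. With at least 100 reads in CHX replicate 2 there were 138 such genes, and 64 of them have an assembled transcript at their Cufflinks locus. They include the ribosomal protein gene NCU04779 (L8), with 1182 and 2850 reads, NCU00695, with 915 and 2309 reads, and NCU06660, with 537 and 2138 reads. NCU01606, an ATP synthase subunit, had 679 and 1625 reads with CHX and is listed at an FPKM of 238 and 0 without. In the other direction, 528 genes were above 0 in both libraries without CHX and appear in neither CHX table, and 353 appear in 1 of them.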
